A study of Mus musculus with 10 samples.

Results

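The genes described here are 37 genes of the hypoxia response and of glycolysis. They were chosen by their measured values: in an earlier reading of these data, such genes moved in opposite directions with the 2 stimuli of the study, so the changes with IgE and with LPS are given as a description, with no test. A member was measured by a probe set that the annotation of the array maps to 1 gene symbol, and by the probe set with the highest mean where a gene had several. By that rule 36 of the 37 genes were measured, of 19937 named genes on the array (Gpi1, glucose-6-phosphate isomerase, had no such probe set). Of the 36, 29 were above background on all 10 arrays, 6 on some of them, and Eno2, an enolase best known from neurons, on none. An array's background was set where 95 percent of its 1027 olfactory receptor genes, which these cells should not use, lay below it, at log2 5.56 to 5.78.

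RNA came from bone marrow (BM)-derived cells of C57BL6/N mice, wild type (B6) or deficient in secretory leukoprotease inhibitor (Slpi-/-), with 1 GeneChip Mouse Gene 1.0 ST array for each of 10 conditions. BM-derived basophils (BMBs), grown with interleukin 3, were left unstimulated or received anti-trinitrophenol IgE for 1 h and then the antigen trinitrophenol-ovalbumin for 12 h, a treatment called IgE below. BM-derived eosinophils (BMEos), grown with Flt3 ligand, stem cell factor and interleukin 5, were left unstimulated or received lipopolysaccharide (LPS) for 3 h. Mast cells, grown with interleukin 3, were unstimulated. Per the methods, BMBs were magnetically enriched with an anti-DX5 antibody from the cells in culture, so each array measured a population of cells.

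In cells with enough oxygen, prolyl hydroxylases (the Egln genes) mark the alpha subunit of hypoxia-inducible factor (HIF) for destruction. When oxygen is scarce the subunit, encoded by Hif1a, accumulates, pairs with ARNT and binds DNA at a short core motif near genes for glucose uptake, glycolysis, mitophagy and blood vessel growth. In activated immune cells the same subunit can also accumulate with oxygen present, and granulocytes are known for their reliance on glycolysis.

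In BMBs, 19 of the 34 members that could be assessed were higher after IgE by at least 1.5-fold in both genotypes, as were 5.01% of all genes assessed, and 0 were lower. In BMEos, 23 of 35 were lower after LPS by that measure, as were 6.73% of all genes, and 0 were higher. Among them were 15 that did both: the glucose transporter Slc2a1, 7 glycolytic enzymes (Pfkl, Pfkp, Aldoc, Tpi1, Pgk1, Pgam1 and Ldha), and Ak4, Egln1, Bnip3, Higd1a, P4ha1, Ankrd37 and Ndrg1. By a second probe set, Ak4 was not past the limit with LPS and Higd1a was not past it with IgE. The LPS arrays also differed from the unstimulated BMEos arrays in sex-linked genes. The differences called LPS therefore cannot be told apart from differences in the sex of the mice or between cultures. Without a stimulus, 27 of 35 members were higher in BMEos than in BMBs by limma and 6 lower (beside 18.6% and 21.2% of all genes), on arrays that also served to choose the members, while the methods' paired t-test called 0. Loss of Slpi gave no called change in any member over the 5 pairs of arrays, nor in any of all 13571 genes, Slpi itself included.

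The DNA just upstream of the members was examined for the core motif bound by HIF. The rule did not use sequence, but the list was made of hypoxia and glycolysis genes, the kind that HIF binds near. A higher share in the members than in all genes therefore describes the list and does not test the responses. The letters ACGTG, on either strand, were searched in the 250 bases before each start listed by RefSeq (build GRCm38.p6), and 33 of the 36 measured members had an entry (Slc2a3, Bnip3l and Ndrg1 did not). The motif was present at 1 or more starts of 22 of these 33 genes (66.7%), against 18.5% of all 27025 genes in the table and 23.8% of the 10772 of them that were above background on at least 1 array. Counted by start, it was present at 26 of 52 (50.0%) against 16.6% of 32851. These windows are also rich in G and C, with a median of 62.2% in the members and 59.2% in the expressed genes. With the second form of the core, GCGTG, allowed as well, 31 of 33 members (93.9%) and 57.7% of the expressed genes had a match. Of the members that were higher with IgE and lower with LPS, 9 of 14 held ACGTG (64.3%), and of the other members 13 of 19 (68.4%). A match is a string of letters and not a binding site.

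The 150 bases before the start are shown for 6 of the members called with both stimuli, picked for display and not by rank. They let the spacing and number of matches be seen, with ACGTG (or its complement CACGT) in capitals. Overlapping matches on both strands appear as CACGTG, which is also the E-box bound by other factors. In order, they lie at chr7:138909507-138909656 (minus strand), chr7:46845654-46845803 (plus), chrX:106186950-106187099 (plus), chr10:59323146-59323295 (plus), chr4:119108595-119108744 (plus) and chr6:124814159-124814308 (minus), each read 5′ to 3′ towards the gene.
Bnip3: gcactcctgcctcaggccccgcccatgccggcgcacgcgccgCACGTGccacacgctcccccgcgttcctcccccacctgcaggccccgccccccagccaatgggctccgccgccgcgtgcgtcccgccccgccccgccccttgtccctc
Ldha: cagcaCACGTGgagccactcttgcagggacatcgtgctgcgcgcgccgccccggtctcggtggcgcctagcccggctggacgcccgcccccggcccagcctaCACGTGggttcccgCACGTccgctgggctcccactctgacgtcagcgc
Pgk1: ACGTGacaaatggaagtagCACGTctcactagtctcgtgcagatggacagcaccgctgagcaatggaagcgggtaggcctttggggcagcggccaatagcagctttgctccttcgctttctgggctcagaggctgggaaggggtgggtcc
P4ha1: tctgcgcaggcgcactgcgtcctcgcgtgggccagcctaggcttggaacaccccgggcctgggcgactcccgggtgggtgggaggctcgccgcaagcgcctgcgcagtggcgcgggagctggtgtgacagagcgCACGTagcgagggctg
Slc2a1: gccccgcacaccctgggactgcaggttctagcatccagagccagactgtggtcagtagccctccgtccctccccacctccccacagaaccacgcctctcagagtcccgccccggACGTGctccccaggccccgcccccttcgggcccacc
Tpi1: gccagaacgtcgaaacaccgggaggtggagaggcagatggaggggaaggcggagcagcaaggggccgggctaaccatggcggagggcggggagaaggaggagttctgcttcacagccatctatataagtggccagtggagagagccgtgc
Ldha, whose window is the first of its 2 listed starts, had 5 matches by strand there and 0 in the 250 bases before its second start. Pgk1 had 2. P4ha1 and Slc2a1 had 1 each. Tpi1 had none in its 250 bases, though its signal moved with both stimuli. Among the members called with both stimuli but not shown, Pgam1, Egln1 and Ankrd37 had a match in the 150 bases before the start. Pfkl, Pfkp, Aldoc, Ak4 and Higd1a had none there, and Ndrg1 had no entry. Ak4 had matches further upstream of its last listed start.

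Slpi fitted the labels in BMBs and BMEos. Its log2 signal was 11.42 and 11.33 on the B6 BMB arrays without and with IgE against 6.55 and 6.35 in Slpi-/-, and 8.08 and 7.96 in B6 BMEos without and with LPS against 6.41 and 5.93. In mast cells it was 6.53 and 6.47, so the label could not be checked there. Of the marker lists, all 7 eosinophil markers were higher in BMEos than in either other cell, and 5 of 6 basophil markers were higher in BMBs than in mast cells by limma. The exception was Fcer1a, a chain of the IgE receptor, at 11.43 and 11.47 in BMBs and 12.16 and 12.24 in mast cells. Of 7 mast cell markers, the 5 above background, Cma1 and Kit among them, were higher in mast cells, although the tryptase Tpsb2 was also at 11.02 and 10.81 in BMBs. Tpsab1 and Mrgprb1 were above background on 0 arrays and Mcpt4 on 1. The 2 LPS arrays stood apart in sex-linked genes. Xist was 9.72 and 9.66 with LPS against 4.15 and 4.90 in unstimulated BMEos, and the Y-linked Eif2s3y was 3.22 and 3.54 against 8.20 and 8.45. The other 8 arrays were all low in Xist and high in Eif2s3y. Every difference called LPS here therefore cannot be told apart from a difference in the sex of the mice or between cultures. In a cell population, fewer cells of a type and less RNA per cell cannot be told apart either.

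The first question was how the members responded to IgE in BMBs. Over the 34 members above background on at least 1 of the 4 BMB arrays, the median log2 difference was 0.79, against -0.02 over all 12631 such genes. The 19 members called higher (55.9%) stood beside 5.01% of all genes, and the 0 called lower stood beside 3.66%. Both IgE arrays lay above both unstimulated arrays for 26 of 34 members (76.5%) and for 29.5% of all genes. Pfkfb4, Mxi1 and Ddit4 were below 0 in both genotypes. By the rule of choice none of this tests the members. Just inside the 1.5-fold limit was Ndrg1 (log2 differences 0.64 in B6 and 0.77 in Slpi-/-) and just outside was Aldoa (0.56 and 0.73).

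The second question was the response of BMEos to LPS. Over 35 members the median log2 difference was -0.98, against 0.01 over all 12711 genes. The 23 members called lower (65.7%) stood beside 6.73% of all genes and the 0 called higher beside 4.45%. Above 0 in both genotypes were 4 members (11.4%, against 41.0% of all genes). They were Pfkm, Hif1a, P4ha2 and, by the probe set used but not by its second, Hk1. Below 0 in both were 30 members (85.7%, against 39.0% of all genes). Just inside the limit was Pgam1 (-0.68 and -0.65) and just outside was Hk2 (-0.80 and -0.53). Higher with IgE and lower with LPS were 15 of 34 members (44.1%) and 58 of the 11976 genes assessed in both (0.484%). Ak4 and Higd1a are among the 15 only by the probe set used. Past the limit with neither stimulus were 7 members (Hk1, Hk2, Pfkm, Aldoa, Pfkfb4, Hif1a and Car9). Doses, times and cells differ between the stimuli, so the 2 responses are set side by side and not compared.

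**Figure D1:**
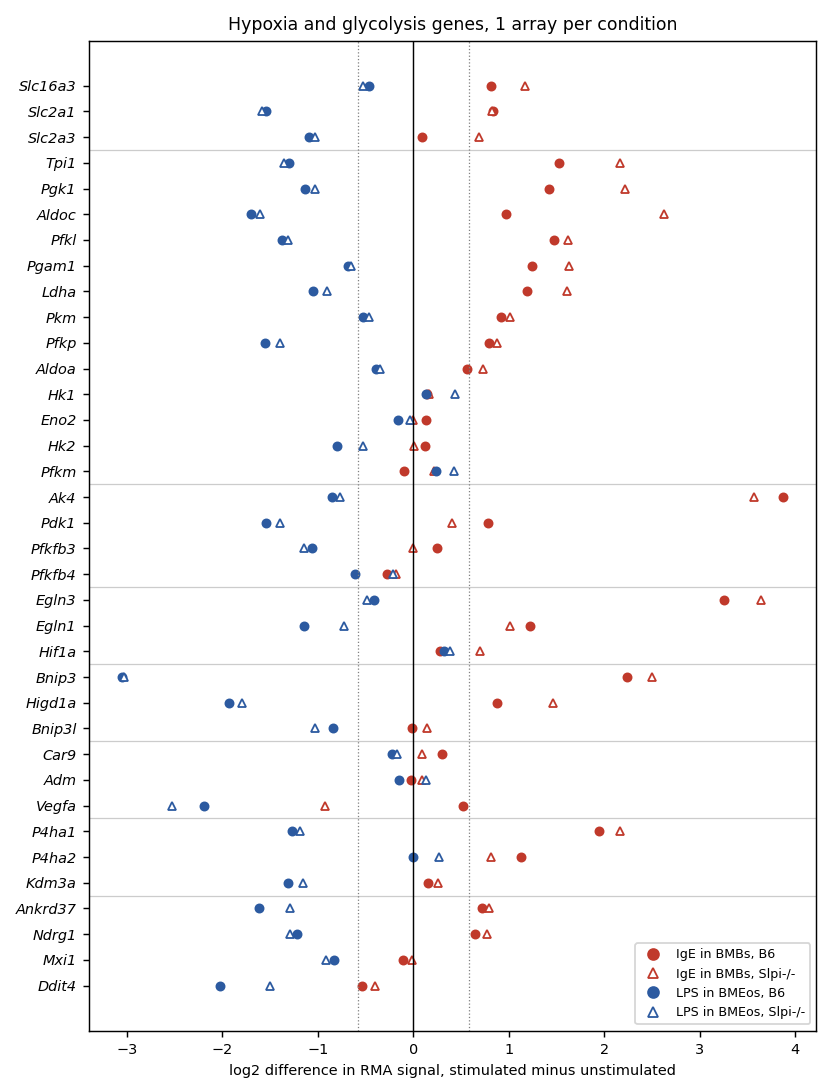
Log2 difference in RMA signal (x axis) of each measured member (y axis, grouped by role), stimulated minus unstimulated array, for IgE in BMBs (red) and LPS in BMEos (blue), in B6 (filled circles) and Slpi-/- (open triangles); dotted lines mark 1.5-fold. Most red points lie to the right of 0 and most blue points to the left, with the widest gap at Bnip3, at 2.24 and 2.49 with IgE and -3.05 and -3.03 with LPS.

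Among the transporters, Slc2a1 (GLUT1, the main glucose importer of many cells) read 10.75 and 10.76 in B6 and Slpi-/- BMBs and 11.59 and 11.58 after IgE. Unstimulated BMEos gave 12.46 and 12.47, and those with LPS 10.92 and 10.89. The groups were apart in both cells, and the 2 genotypes gave nearly the same values. Slc16a3 (MCT4), which exports lactate, was higher with IgE by 0.99 ± 0.26 on the log2 scale (SD, n = 2 genotypes) and differed by -0.49 ± 0.05 with LPS. Slc2a3 (GLUT3) was lower with LPS by 2.09-fold, and with IgE it differed by 0.09 in B6 and 0.69 in Slpi-/-.

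Of the 12 glycolytic enzymes above background, 8 were called higher with IgE (beside 5.01% of all genes) and 7 called lower with LPS (beside 6.73%). Tpi1, which interconverts the 2 triose phosphates, read 9.15 and 8.65 in B6 and Slpi-/- BMBs and 10.68 and 10.81 after IgE. In BMEos it read 11.17 and 11.15, and 9.87 and 9.79 after LPS, and in mast cells 9.58 and 9.73. Both pairs of arrays were apart, and unstimulated BMBs were the lowest of the 5 settings. Pgk1, the first enzyme of the pathway to yield ATP, read 9.75 and 9.19 in BMBs and 11.17 and 11.40 after IgE. Its signal in BMEos was 10.95 and 10.92 without LPS and 9.82 and 9.89 with it, and in mast cells 8.53 and 9.17. The IgE arrays reached or passed the level of unstimulated BMEos, while the LPS arrays came down to that of the higher unstimulated BMB array. Pfkl, a subunit of phosphofructokinase, read 7.70 and 7.50 in BMBs, 9.17 and 9.12 after IgE, 9.39 and 9.33 in BMEos, 8.01 and 8.02 after LPS, and 7.70 and 8.09 in mast cells. Aldoc, an aldolase, read 7.14 and 6.21 in BMBs, 8.11 and 8.84 after IgE, 8.48 and 8.62 in BMEos, and 6.78 and 7.01 after LPS. The 2 unstimulated BMB arrays differed by -0.92 in Aldoc (Slpi-/- minus B6), and the 2 IgE arrays by 0.73. Its difference with IgE was 0.97 in B6 and 2.62 in Slpi-/-.

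Ldha, which turns pyruvate into lactate and is the last step of the pathway, is given with its values for its role, a choice made after they were seen. It read 11.00 and 10.66 in BMBs and 12.19 and 12.27 after IgE, and 12.47 and 12.47 in BMEos and 11.41 and 11.56 after LPS. The mean folds were 2.63 higher and 1.97 lower. Pgam1 was 2.70-fold higher with IgE and 1.59-fold lower with LPS, and Pfkp, another phosphofructokinase subunit, was 1.78-fold higher and 2.78-fold lower. Pkm, pyruvate kinase, was 1.95-fold higher with IgE and had differences of -0.52 and -0.47 with LPS. Pfkm, the muscle form of phosphofructokinase, and Hk2 each had a mean difference of 0.06 with IgE. Hk1 had 2 probe sets that disagreed: the one used had a mean of 11.05 in BMEos and 11.33 with LPS, whereas the other differed by -0.50 and -0.31, and 15 further probe sets name Hk1 together with other genes, so its direction with LPS rests on the probe set. Near-identical copies of such enzyme genes elsewhere in the genome can share probe signal.

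Among the regulators of flux, Ak4, a mitochondrial adenylate kinase, moved far with IgE. It read 4.74 and 4.95 in BMBs, below background on both arrays, and 8.61 and 8.51 after IgE, which is at least 7.64-fold higher against the background. In BMEos it read 7.97 and 7.79, and 7.12 and 7.02 after LPS, and in mast cells 5.34 and 5.77. A second Ak4 probe set differed by 0.64 and 0.79 with IgE and by -0.11 and 0.04 with LPS, so the direction with LPS rests on the probe set. Pdk1, a kinase that inhibits pyruvate dehydrogenase, was 2.78-fold lower with LPS, and its differences with IgE were 0.78 and 0.41. Pfkfb3, which makes the activator of phosphofructokinase, was 2.14-fold lower with LPS and differed by 0.12 ± 0.18 with IgE. Pfkfb4, its relative, passed the limit with neither stimulus.

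The HIF subunit and its hydroxylases did not move as 1 group. Egln3 read 6.41 and 6.47 in BMBs and 9.66 and 10.11 after IgE, a mean of 10.9-fold. In BMEos it read 10.70 and 10.71, and 10.28 and 10.23 after LPS, a difference of -0.45 ± 0.05 that stayed inside the limit. Egln1 was 2.17-fold higher with IgE and 1.91-fold lower with LPS. Hif1a, described for its role and chosen after its values were seen, read 9.51 and 9.35 in BMBs and 9.78 and 10.06 after IgE. In BMEos it read 11.30 and 11.36, and 11.62 and 11.74 after LPS. Its RNA was thus above both unstimulated arrays with each stimulus, within 1.5-fold on the mean, and these arrays do not measure its protein.

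Bnip3, a mitophagy receptor on the outer mitochondrial membrane, had the largest mean absolute difference over the 2 stimuli among the 36. It read 8.11 and 7.86 in BMBs and 10.35 and 10.35 after IgE, 5.15-fold higher. In BMEos it read 10.58 and 10.61, and 7.53 and 7.58 after LPS, 8.21-fold lower. Its second probe set ran the same way, with 1.66 and 1.56 for IgE and -2.21 and -2.73 for LPS. Higd1a, a small protein of the respiratory chain, read 5.55 and 5.24 in BMBs, at or below background, and 6.43 and 6.71 after IgE, at least 1.92-fold higher. It read 7.40 and 7.41 in BMEos, and 5.47 and 5.62 after LPS, also below background, at least 3.39-fold lower. Mast cells had 5.62 and 5.55. A second Higd1a probe set gave 0.24 and 0.50 for IgE and -1.78 and -1.67 for LPS, so its call with IgE rests on the probe set. Bnip3l, the relative of Bnip3, differed by 0.06 ± 0.11 with IgE and was 1.91-fold lower with LPS.

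Vegfa, the angiogenic growth factor, was the exception among the members that moved far. It read 9.44 and 10.31 in BMBs and 9.96 and 9.38 after IgE, so the arrays with and without IgE overlapped. With LPS it was 7.43 and 7.18 against 9.63 and 9.71 in unstimulated BMEos, 5.14-fold lower, and in mast cells it was 9.13 and 9.27. Car9, a surface carbonic anhydrase and a common marker of hypoxia, differed by 0.19 ± 0.15 with IgE and -0.20 ± 0.03 with LPS. Adm, the vasodilator peptide adrenomedullin, was above background on 2 arrays and lay between 5.47 and 5.77 on all 10.

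P4ha1, which hydroxylates proline in collagen, read 8.27 and 7.91 in BMBs and 10.21 and 10.08 after IgE, 4.15-fold higher. BMEos had 10.43 and 10.39, and 9.16 and 9.19 after LPS, 2.35-fold lower. P4ha2, the second collagen hydroxylase, was 1.96-fold higher with IgE and was near or below background in BMEos. Kdm3a, a histone demethylase, was 2.35-fold lower with LPS and differed by 0.21 ± 0.07 with IgE. Ankrd37 was 1.69-fold higher with IgE and 2.74-fold lower with LPS. Mxi1, a MAX-binding repressor, was 1.83-fold lower with LPS, as was Ddit4, an inhibitor of mTORC1, by 3.39-fold. Ddit4 was also one of the 3 members below 0 with IgE in both genotypes, at -0.54 and -0.40.

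Genes of the same pathways that are no members were read from lists made with earlier results of these data known, so their counts test nothing. By the same limit, 5.01% of all genes were higher and 3.66% lower with IgE. With LPS 4.45% were higher and 6.73% lower. The list of other glycolytic enzymes also holds a lactate transporter (Slc16a1), a flux regulator (Pfkfb2) and genes of glycogen metabolism (Pgm1 and Gys1 among them). Of 12 of its genes, 3 were higher with IgE (Slc16a1, Pgm1 and Gys1), and 3 of 11 were lower with LPS (Pfkfb2, Pgm1 and Gys1). None of these calls was of an enzyme of glycolysis itself. Of 30 other hypoxia-induced genes, 9 were higher with IgE and 1 was lower, and 12 of 29 were lower with LPS. Gys1 and Gbe1 are in both lists, so the calls of Gys1 are counted in each. Car12, a carbonic anhydrase, was at least 3.36-fold higher with IgE, and Hmox1, heme oxygenase, differed by 2.26. With LPS the chemokine receptor Cxcr4 differed by -2.37, and the lipid droplet gene Hilpda was at least 3.97-fold lower. Of 12 HIF regulators, 1 was higher with IgE (Arnt2, a partner subunit of HIF, by 2.42) and 0 were past the limit with LPS. The pentose phosphate pathway had 0 of 7 past it with either stimulus. Pyruvate dehydrogenase and the citric acid cycle had Idh3a of 19 genes higher with IgE and Pdhb lower with LPS.

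Markers of other cells were read beside these counts. The summed neutrophil marker signal (8 genes, on a log2 scale) was 12.6 and 12.7 before IgE and 11.1 and 11.3 after. Most of it came from Ly6g, so the sum does not speak for the rest of the list. With IgE the neutrophil marker Ly6g was 12.38 and 12.68 before and 10.95 and 11.15 after. The eosinophil marker Ccr3 was 6.78 and 7.55 before and 4.63 and 6.36 after. These were the only markers of the basophil, mast cell, eosinophil, neutrophil, monocyte and platelet lists past the limit with IgE. With LPS, 3 markers were past it. Ly6g was 9.55 and 9.67 before and 8.70 and 8.99 after, the monocyte marker Csf1r was 9.43 and 9.62 before and 10.4 and 10.3 after, and the platelet gene Pf4 was 5.62 and 5.73 before and 7.71 and 7.36 after. The eosinophil markers were all 7 above background on each BMEos array, and all 6 basophil markers on each BMB array. The part of other cells in the responses was not tested.

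**Figure D2:**
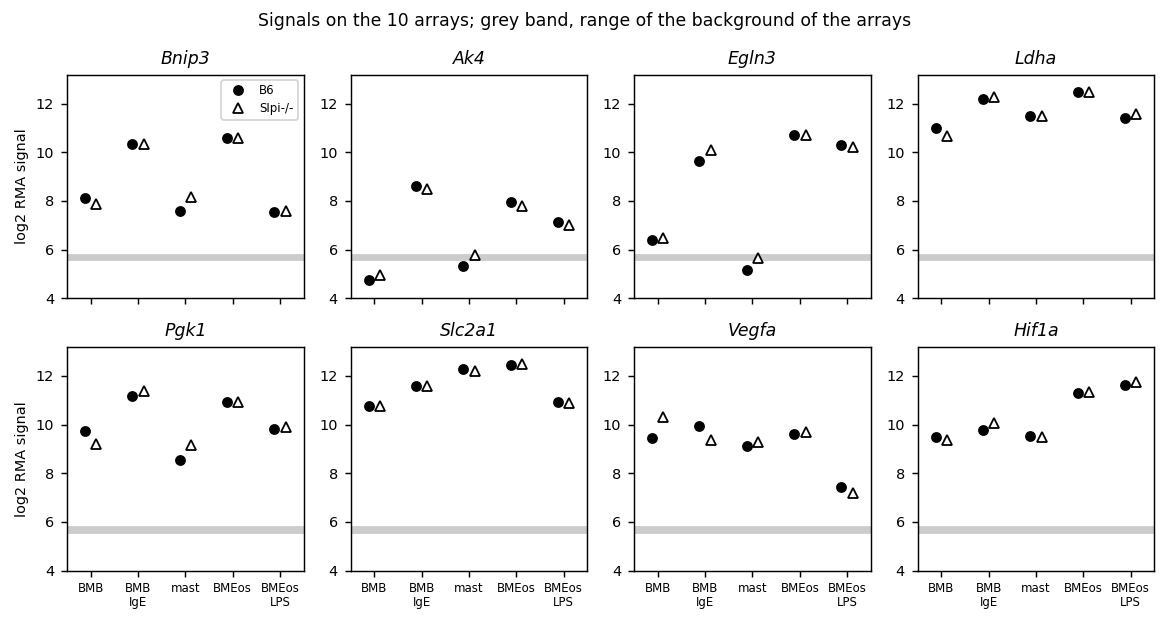
Log2 RMA signal (y axis) of 8 members on the 10 arrays, by cell type and stimulus (x axis), with B6 as filled circles and Slpi-/- as open triangles; the grey band is the range of the backgrounds of the arrays. Bnip3 lies at 10.58 and 10.61 in BMEos and at 7.53 and 7.58 with LPS, near its level in mast cells, while Egln3 lies between 10.23 and 10.71 in BMEos with and without LPS, and Hif1a is highest with LPS.

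Levels without a stimulus were compared between the 3 cell types by limma over the 6 unstimulated arrays, with terms for cell type and genotype. These arrays are also the reference of the 2 stimulus differences by which the members were chosen, so the counts and differences below are not independent of that choice. They are a description of the cells, and no p is given for single members. In BMEos against BMBs, 27 of 35 members were higher (77.1%, beside 18.6% of 12998 genes) and 6 lower (17.1%, beside 21.2%). The median difference was 1.19, against -0.03 over all genes. Against mast cells, 23 members were higher in BMEos (65.7%, beside 24.3%) and 5 lower (14.3%, beside 26.8%), with a median of 0.97. BMBs against mast cells showed no such lean: 7 members were higher (20.0%, beside 18.8%), 10 were lower (28.6%, beside 17.9%), and the median was -0.10. Each contrast rests on 2 arrays a cell type and 2 residual degrees of freedom, and limma draws most of its error from the other genes. By the methods' paired t-test, with 1 residual degree of freedom, 0 members passed in any of these contrasts.

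Egln3 separated the 3 cells most widely among the members. It read 10.70 and 10.71 in BMEos, 6.41 and 6.47 in BMBs, and 5.17 and 5.65 in mast cells, the last below background on both arrays. The difference between BMEos and BMBs was 4.26 ± 0.13 (SE). BMEos were at least 31.5-fold above mast cells. Ak4 was at least 4.77-fold higher in BMEos than in BMBs by the bound, with a measured difference of 3.04 and both BMB arrays below background. Bnip3 read 7.59 and 8.16 in mast cells and was higher in BMEos by 2.72 ± 0.19, and against BMBs by 2.61 ± 0.19. Hif1a was higher in BMEos than in BMBs by 1.90 ± 0.10 and than in mast cells by 1.81 ± 0.10.

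Hk2, the inducible hexokinase that traps glucose in the cell, divided the cells in another way. It read 7.23 and 7.32 in mast cells, 9.80 and 9.87 in BMBs, and 10.69 and 10.58 in BMEos, with no overlap between cell types. BMBs were above mast cells by 2.55 ± 0.10 and BMEos by 3.36 ± 0.10. Slc2a3 followed the same order, at 9.47 and 9.69 in mast cells, 10.75 and 10.53 in BMBs, and 11.84 and 11.84 in BMEos. Slc16a3 did so as well, at 8.54 and 8.79, 9.52 and 9.46, and 10.94 and 10.94. The differences between BMBs and mast cells were 1.06 ± 0.13 for Slc2a3 and 0.83 ± 0.11 for Slc16a3.

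P4ha1 and Slc2a1 were instead lower in BMBs than in mast cells. P4ha1 read 11.04 and 11.09 in mast cells, the highest of the 5 settings, and 8.27 and 7.91 in BMBs, a difference of -2.98 ± 0.12. In BMEos it was 2.32 ± 0.12 above BMBs. Slc2a1 read 12.30 and 12.19 in mast cells, -1.49 ± 0.10 for BMBs against mast cells. Its difference between BMEos and mast cells was 0.23 ± 0.10 and was not called. Ddit4 read 9.83 and 9.82 in mast cells, 8.95 and 8.92 in BMBs, and 9.69 and 9.33 in BMEos, and was lower in BMBs than in mast cells. Aldoc, at 7.52 and 7.98 in mast cells, differed by -1.07 ± 0.29 in BMBs.

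The members lower in BMEos than in BMBs were Ndrg1, P4ha2, Pfkm, Hk1, Car9 and Pfkp. Ndrg1, a stress-responsive gene, read 10.81 and 10.42 in BMBs, 11.12 and 11.06 in mast cells, and 7.97 and 8.25 in BMEos. The difference was -2.50 ± 0.16 against BMBs and -2.98 ± 0.16 against mast cells. P4ha2 read 6.57 and 6.56 in BMBs, 6.65 and 6.81 in mast cells, and 5.43 and 5.44 in BMEos, below background on both arrays. It was at least 1.87-fold lower in BMEos than in BMBs and at least 2.09-fold lower than in mast cells. Pfkm read 6.74 and 6.63 in BMBs, 6.96 and 7.12 in mast cells, and 5.87 and 5.75 in BMEos, with a difference of -0.88 ± 0.11 between BMEos and BMBs. The isoforms of phosphofructokinase thus differed in where they were high, with Pfkl highest in unstimulated BMEos, Pfkp in BMBs after IgE and Pfkm in mast cells. Hk1 read 11.70 and 11.72 in BMBs, 11.33 and 11.33 in mast cells, and 11.20 and 10.89 in BMEos, but its second probe set read 9.37 and 9.12 in BMBs and 9.55 and 9.53 in mast cells, the opposite order.

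Over all 5 settings of cell and stimulus, unstimulated BMEos had the highest mean level for 21 of 35 members (60.0%), against 18.0% of 13571 genes. BMBs after IgE were highest for 9 (Hk1, Pfkp, Pgk1, Pgam1, Pkm, Ak4, Car9, P4ha2 and Ndrg1), mast cells for 3 (Pfkm, P4ha1 and Ddit4), unstimulated BMBs for Vegfa and BMEos with LPS for Hif1a. The lowest level was in unstimulated BMBs for 12 members, in BMEos with LPS for 10, in mast cells for 8, in unstimulated BMEos for 3 and in BMBs after IgE for 2. Only the first of these counts has its share over all genes beside it, so the others are not read as particular to the members. These orders share the arrays that chose the members and are a description.

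Of the other pathway genes without a stimulus, 21 of 31 other hypoxia-induced genes were higher in BMEos than in BMBs and 4 lower, and 19 were higher and 5 lower than in mast cells. Of all genes, 18.6% were higher and 21.2% lower in BMEos than in BMBs. Against mast cells 24.3% were higher and 26.8% lower. Cxcr4 led the first contrast with a difference of 3.39. The lists were made with earlier results known and these genes lead them, so no p is given for them either. The pentose phosphate pathway had 6 of 7 genes higher in BMEos than in mast cells and 0 lower, among them Pgd, which makes NADPH, by 1.83. The citric acid cycle list leaned less, with 7 of 19 higher and 5 lower than in mast cells. Among the other glycolytic enzymes Hk3, a hexokinase of myeloid cells, was at least 9.89-fold higher in BMBs than in mast cells.

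**Figure D3:**
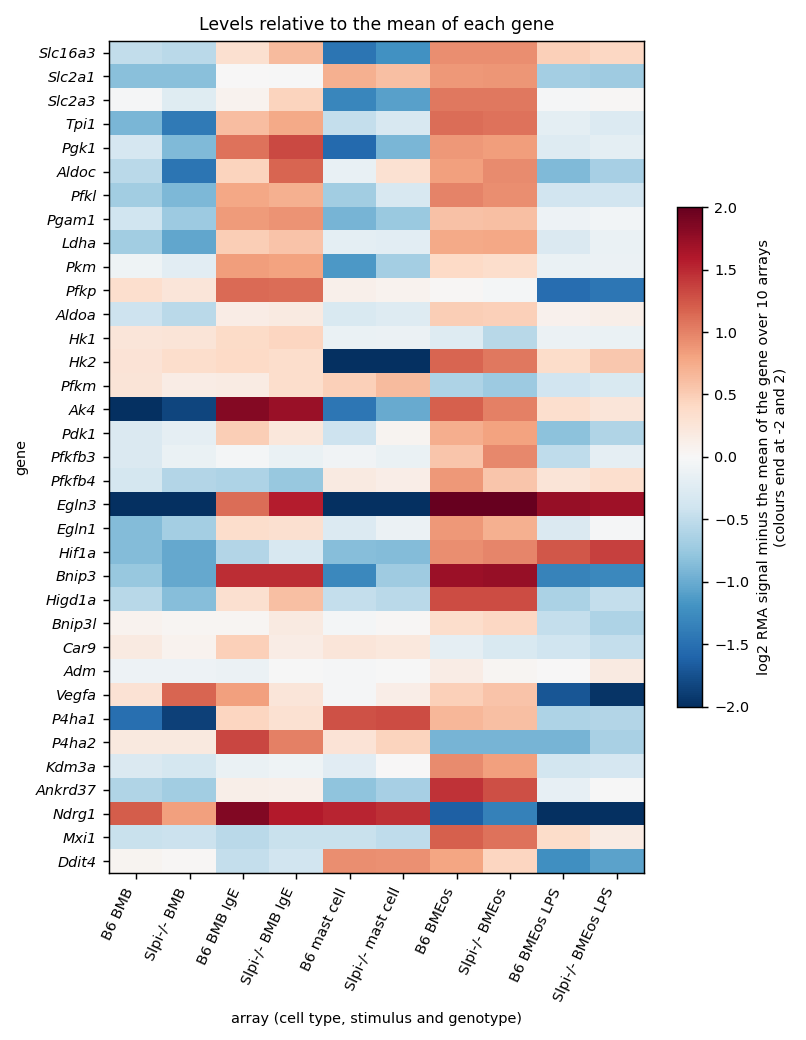
Level of each member above background on at least 1 array (rows, grouped by role) on each of the 10 arrays (columns), as log2 RMA signal minus the mean of that gene over the 10 arrays; red is above the mean and blue below, and colours end at -2 and 2. The BMEos columns are red for most rows and turn pale or blue with LPS, the BMB columns turn from blue to red with IgE for many rows, and Ndrg1, P4ha2 and Pfkm are blue in BMEos.

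The third question was whether loss of Slpi changed the members. The contrast between genotypes was not used to choose them. By limma over the 5 pairs of arrays, with the setting as a block, 0 of 35 members were called, as were 0 of 13571 genes (0.0%). At an unadjusted p under 0.05 there were also 0 of 35 members, against 722 genes (5.32%), and by the methods' t-test 0 members were called. The differences ran from -0.14 ± 0.06 (SE) for Car9, lower in Slpi-/- in all 5 pairs, to 0.19 ± 0.09 for Egln3, higher in 4 of 5 pairs (limma adjusted p = 0.914 for each). The median was 0.02. The largest of these differences was 1.14-fold, and a p that misses the threshold does not show equal levels. The difference of the genotype effect between BMEos and BMBs was called for 0 of 35 members and 1 gene of 13571 (0.00737%), Slpi itself. Slpi was not called over the 5 pairs, at -2.72 (limma adjusted p = 0.851), its differences being unequal between the settings. In the difference between cells Ndrg1 alone of the members passed an unadjusted 0.05, with 0.57 ± 0.14 and limma adjusted p = 0.747.

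Within a single setting there is 1 array a genotype and no test. The members above background had a median difference (Slpi-/- minus B6) of -0.11 in BMBs, 0.02 in BMBs after IgE, 0.14 in mast cells, -0.03 in BMEos and 0.05 in BMEos with LPS. In unstimulated BMBs 23 of 32 members were lower in Slpi-/- (71.9%, against 56.6% of all genes), among them 10 of 12 glycolytic enzymes. In mast cells 22 of 32 were higher (68.8%, against 49.6%), and with LPS 24 of 34 (70.6%, against 50.5%). Past 1.5-fold were Vegfa (0.87) and Aldoc (-0.92) in BMBs, Aldoc (0.73) in BMBs after IgE and Pgk1 (0.64) in mast cells. Members of one pathway are not replicates, so these shares are a description of 1 pair of arrays each.

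The difference with IgE was the more positive in Slpi-/- for 25 of 34 members (73.5%, against 53.4% of all genes), and the difference with LPS for 26 of 35 (74.3%, against 50.1%). Pgk1 differed with IgE by 1.42 in B6 and 2.21 in Slpi-/-, and Tpi1 by 1.53 and 2.16. In both, most of the gap came from the unstimulated BMB arrays, at 9.75 and 9.19 for Pgk1 and 9.15 and 8.65 for Tpi1. Of 8 neutrophil markers, 6 were higher on the B6 BMB array than on the Slpi-/- one: Mpo was 8.84 against 6.0, Elane 7.14 against 5.47, Ngp 6.77 against 5.02, S100a8 5.78 against 3.84, S100a9 6.23 against 4.95 and Ltf 5.08 against 5.05. Lower on the B6 array were Ly6g at 12.38 against 12.68 and Camp at 5.47 against 5.72. The summed signal, most of it from Ly6g, was 12.6 against 12.7. Above background were 6 of the 8 on the B6 array and 3 on the other. On the B6 IgE array the platelet genes Pf4 and Ppbp were lower, at 8.96 and 8.81 against 10.85 and 11.45. The part of these cells in the genotype differences was not tested, and neither was the difference between genotypes in response to a stimulus.

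**Figure D4:**
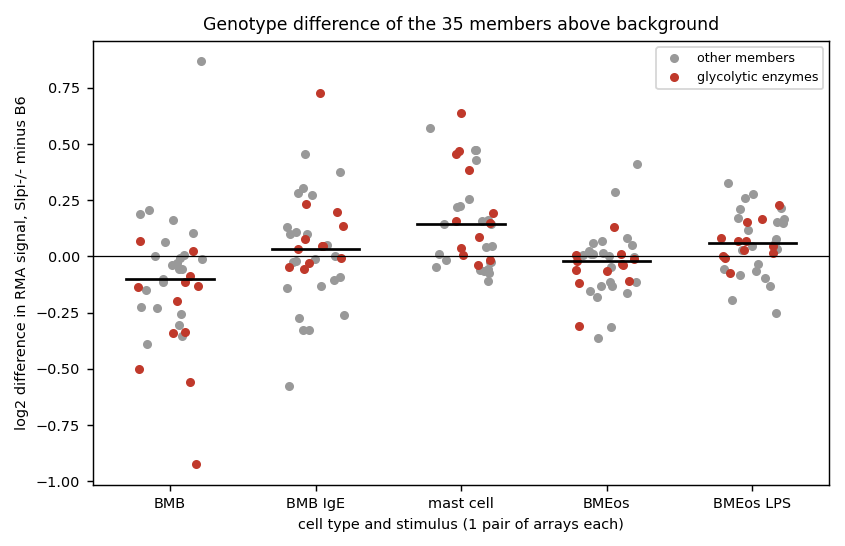
Log2 difference in RMA signal between Slpi-/- and B6 (y axis) for each of the 35 members above background on at least 1 array, in each cell type and stimulus (x axis, 1 pair of arrays each), with glycolytic enzymes in red; points are spread sideways for visibility and black bars are medians over the 35. The red points lie mostly below 0 in BMBs and mostly above 0 in mast cells, and the points lie closest to 0 in BMEos with and without LPS.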

How the data were processed

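RNA of BMBs, mast cells and BMEos was hybridised to 10 GeneChip Mouse Gene 1.0 ST arrays, 1 for each genotype, cell type and stimulus. The authors deposited log2 signals of 34760 probe sets, made by robust multi-array average (RMA) with the Bioconductor package affy. RMA quantile-normalizes the arrays to one distribution, so a shift of most genes would be removed, and no further normalization was applied here. The annotation gave 1 symbol for 21640 probe sets, several for 1321 and none for 11799.

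A gene was read by its probe set of 1 symbol with the highest mean. It entered a comparison if it was above background (the level that 95 percent of olfactory receptor genes stay under) on at least 1 of the arrays compared. Against a group below background, folds are lower bounds: the mean of the brighter group over the mean background of the dimmer one. IgE and LPS calls required 1.5-fold in the same direction in both genotypes. limma 3.58.1 (R 4.3.3) was fitted across all genes with Benjamini-Hochberg adjustment and a threshold of 0.05: cell type and genotype over the 6 unstimulated arrays, genotype over all 10 arrays with the 5 settings as blocks, and the difference in the genotype effect between BMEos and BMBs. The labels do not name the animals or cultures behind the arrays, so p-values measure only the spread between these arrays, and their number limits the precision. The fits were tested on simulated data.

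The alternatives were arrays centred on their medians, quantile normalization, the mean of the probe sets of a gene, no filter, a background at the 99th percentile, a variance trend, the methods' paired t-test, all 10 arrays, a 2-fold limit and leaving out arrays. The members and lists were chosen with earlier results of these data known. By the rule for named genes, values on every array are given for the 10 members with the largest mean absolute difference over both stimuli, values on the unstimulated arrays for up to 4 called per contrast and direction between cell types, and each other list gives its leading genes. Of the 36 measured members, 36 matched a gene ID of the RefSeq table (GRCm38.p6), which gave the promoters. Python 3.11.15, numpy 2.4.6, pandas 2.3.3 and matplotlib 3.10.9 were used.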

Additional observations from a re-analysis of the deposited data

Results flagged for a closer look

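Vegfa was the member whose log2 difference with IgE had opposite signs in the 2 genotypes by the largest amounts: 0.52 in B6 and -0.92 in Slpi-/- BMBs. It was singled out because the pairs moved in opposite directions. Each value rests on 1 pair of arrays, and the difference between the genotypes was not tested.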

How the results depend on the processing

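The methods' paired t-test after Benjamini-Hochberg adjustment gave 0 members for each of the 6 counts between unstimulated cell types, where limma gave 7 and 10 (BMBs against mast cells), 23 and 5 (BMEos against mast cells) and 27 and 6 (BMEos against BMBs). It has 1 residual degree of freedom, against 2 for limma, which adds 4.75 drawn from the spread of all genes. At 2-fold in place of 1.5-fold, 10 members were higher with IgE in place of 19, and 17 were lower with LPS in place of 23. Judged on 1 genotype alone, 20 to 22 were higher with IgE, 0 to 1 lower (Vegfa, without the B6 arrays), 23 to 25 lower with LPS and 0 higher. The shares over all genes given earlier hold only for 1.5-fold in both genotypes. These counts are therefore not read as particular to the members. Leaving out any 1 of the 5 pairs left 0 members called between genotypes. Bnip3l turned in BMBs against mast cells, from 0.06 to -0.0659 under quantile normalization, and was called under neither. Among single members, Hk1, Pfkm and Vegfa lost their calls in BMBs against mast cells under at least 1 alternative besides the t-test, and Ndrg1 gained one. With the mean of its probe sets, Ak4 differed by 2.22 with IgE in place of 3.72. The causes were not tested. Signals near the background, as of Adm, Higd1a and P4ha2, allow bounds only.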
